A study of Mus musculus with 8 samples.

Results

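The proteasome genes of mouse red muscle were described across Pus1 mutant and wild type animals. Members were the genes whose symbol starts with Psma, Psmb, Psmc, Psmd, Psme, Psmf or Psmg followed by a number. The rule itself uses no measured value, though it was set with earlier results of these data known. Among the probes that could be given a gene name, 62 matched 50 such genes, out of 20972 named genes. Of the 50, 48 were bright enough to be tested, among 11453 genes. RNA came from the red portion of the frozen gastrocnemius, a calf muscle, of 4 mice homozygous for a mutant Pus1 and of 4 wild type mice, both on C57BL/6J after 5 generations of backcrossing. The labels name no treatment, all mice were 14 to 16 weeks old, and each genotype had 2 males and 2 females. The labels do not say which change the mutant Pus1 allele carries. Each of the 4 2-colour Agilent arrays held 1 mutant and 1 wild type of the same sex and individual number. Arrays 1 and 2 held the male pairs and arrays 3 and 4 the female pairs, and the mutant carried the dye Cy5 on arrays 1 and 3 and Cy3 on arrays 2 and 4.

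The proteasome is the cell's main machine for breaking down proteins marked with ubiquitin. Its core particle is a barrel of stacked rings, in which alpha subunits gate the entry and beta subunits hold the cutting sites, and the regulatory particle at its ends binds the marked protein, removes ubiquitin and threads the chain inward with a ring of ATPases. In skeletal muscle this pathway degrades myofibrillar proteins during wasting, and in cells exposed to interferon the cutting subunits are exchanged for immunoproteasome subunits. Pus1 encodes a pseudouridine synthase that modifies uridines in cytosolic and mitochondrial tRNAs, and the study compared the transcripts of muscle that carries the mutant and the wild type gene.

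A value called a ratio below is the log2 ratio of mutant over wild type on 1 array, and a change is the log2 ratio fitted over the 4 arrays with a term for the dye. A level is the log2 brightness of a probe in 1 sample after normalization. The share of probes well above background ran from 39.7% to 47.3% over the 8 samples. It was highest in the male wild types 1 and 2, at 45.0% and 47.3%, and at most 42.5% in the other samples. The Pus1 transcript had levels of 6.74, 6.88, 6.60 and 7.12 in mutants 1 to 4, against 8.69, 8.42, 8.72 and 9.13 in wild types 1 to 4, and it was detected well above background in 0 mutants and 4 wild types. All 12 markers of skeletal muscle were measured, among them Acta1, Ckm and Myh7, with a mean level over the list of 17.10 to 17.60 in mutants and 16.88 to 17.60 in wild types. Wild types 1 and 2, both male, stood apart from the other samples in one set of genes. That set was chosen by a term for a genotype effect that differs between the sexes, so the choice itself bears on this pattern. The pattern is taken up below with Psme3, the member called by the same term.

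Transcripts of the proteasome were nearly level between mutant and wild type muscle. By limma with Benjamini-Hochberg adjustment over all genes, 0 of the 48 members changed with genotype, against 2 of all 11453 genes (0.0175%), which were Pus1 at -1.90, a bound since it was not well above background in mutants, and Tesc at 1.40. The lowest adjusted p of a member was 0.707. The median change was 0.02 over the members, with 27 higher and 21 lower in mutants, against 0.012 over all genes tested, with 6207 higher and 5246 lower. Changes were small: 38 of 48 members lay within 0.1 of 0 on the log2 scale, where 7204 of all 11453 genes did. For 47 of 48 the 95% confidence interval lay inside a 1.5-fold difference in either direction, the exception being Psme3. The same held for 10586 of all 11453 genes, so small changes were common on the whole array. All 48 members were well above background in all 8 samples, as were 10973 of all 11453 genes, and none of the 48 had a saturated spot. Over the alternatives the count of members changed stayed at 0, while that of all genes ran from 0 to 267. In RNA from whole muscle, fewer cells of a type and less RNA per cell cannot be told apart.

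At an unadjusted p under 0.05 there was 1 member higher in mutants, Psmd8, against 3.41% of all genes, and 1 lower, Psmd9, against 2.46%. The ratio was above 0 on 4 of 4 arrays for 3 members, Psma1, Psmc6 and Psmd8, where 6.5% of all genes showed this, and below 0 on 4 of 4 arrays for Psmd9 alone, where 3.94% of all genes did. Levels of mutants and wild types did not overlap for 0 members with mutants higher (0.672% of all genes) and for 0 with mutants lower (0.541%). These shares of members are close to or below those of all genes tested.

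**Figure D1:**
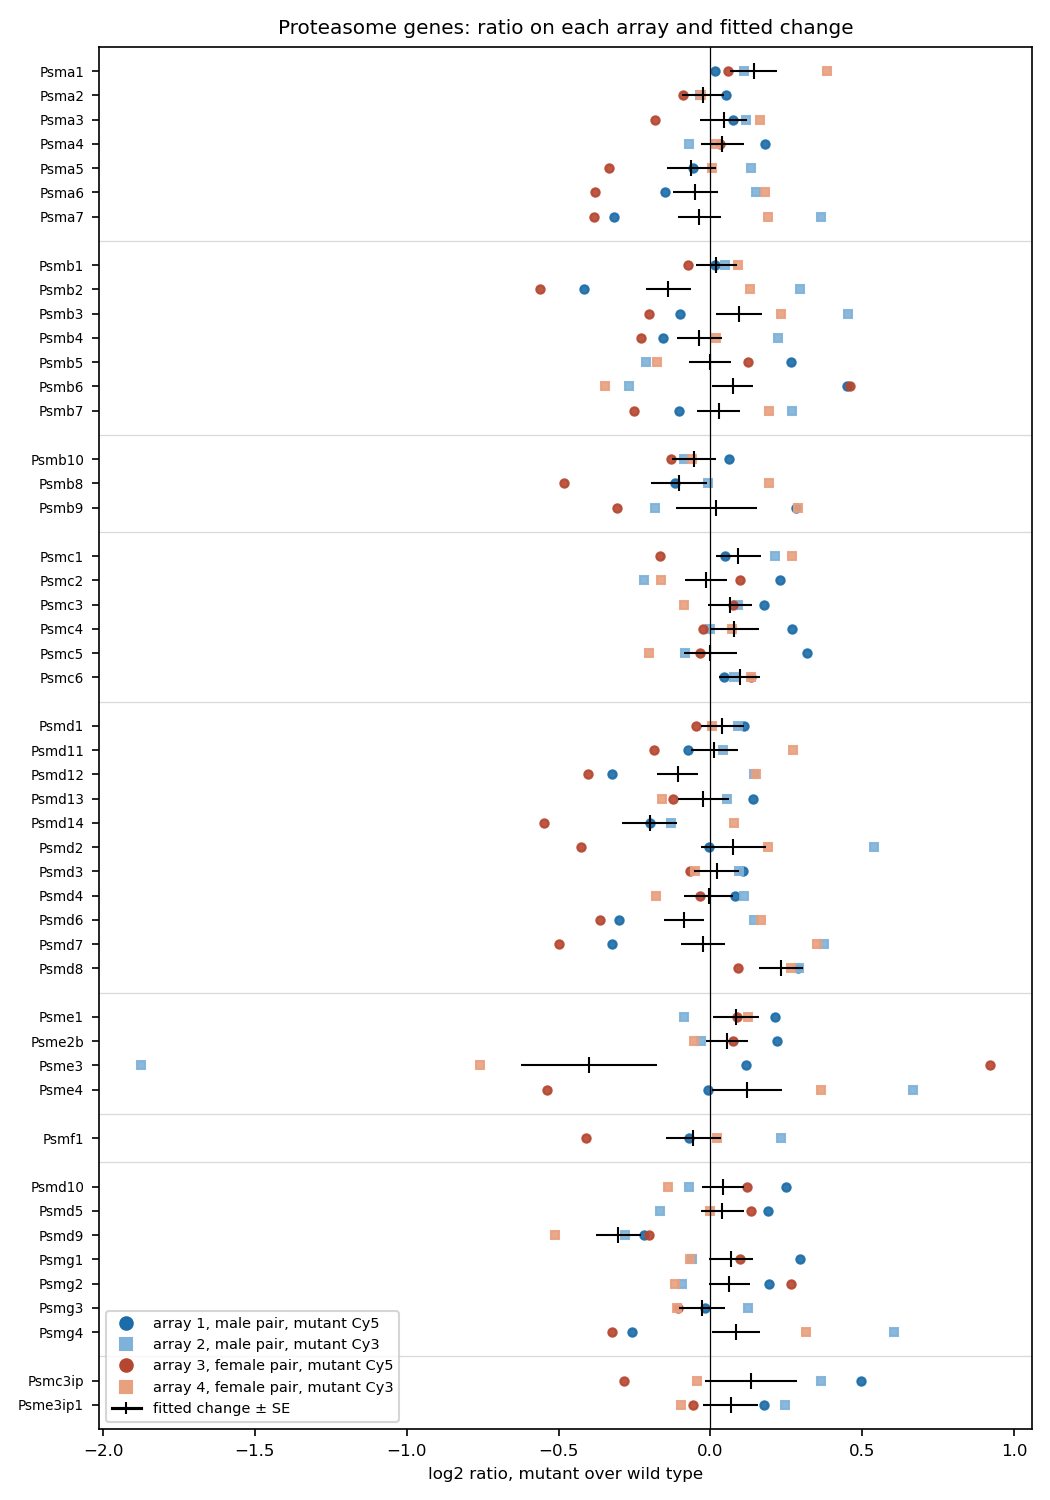
Log2 ratio of mutant over wild type on each of the 4 arrays (points) and fitted change ± SE (bars) for the 48 proteasome genes tested, grouped by role from core alpha at the top to other genes found by their symbol at the bottom. Most points lie within 0.5 of 0, Psmd8 and Psmd9 keep one side of 0 on 4 of 4 arrays, and Psme3 spans -1.87 to 0.92.

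The alpha subunits Psma1 to Psma7 form the outer rings of the core particle. Their changes ran from -0.064 for Psma5 to 0.14 for Psma1, with 3 of 7 higher and 4 lower in mutants. Psma1 had levels of 13.21, 13.18, 13.46 and 13.54 in mutants 1 to 4, against 13.19, 13.07, 13.40 and 13.15 in wild types 1 to 4. Its ratios were 0.016, 0.11, 0.058 and 0.38 on arrays 1 to 4, all above 0 and largest in the female pair of array 4, while the levels of the genotypes overlapped (change 0.14 ± 0.078, SE, n = 4 arrays). Psma5, at the other end, had levels of 12.89, 12.75, 12.61 and 13.03 in mutants, against 12.94, 12.62, 12.95 and 13.03 in wild types, and ratios of -0.057, 0.13, -0.33 and 0.0051. The female pair of array 3 held most of that difference. Changes of the other alpha subunits were -0.026 for Psma2, 0.043 for Psma3, 0.04 for Psma4, -0.05 for Psma6 and -0.037 for Psma7. Psma7 shows how far single arrays departed from the fitted value, with ratios of -0.32, 0.36, -0.38 and 0.19. Psma8, the counterpart of Psma7 in the testis, was above background in 0 of 8 samples and was not tested.

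The beta subunits Psmb1 to Psmb7 form the inner rings. Their changes ran from -0.14 for Psmb2 to 0.095 for Psmb3, both without a catalytic site, with 4 of 7 higher and 3 lower in mutants. Psmb2 had levels of 9.56, 9.89, 9.62 and 10.14 in mutants, against 9.98, 9.60, 10.19 and 10.01 in wild types, with ratios of -0.42, 0.29, -0.56 and 0.13. Psmb3 had levels of 14.68, 14.80, 14.67 and 14.88 in mutants, against 14.78, 14.35, 14.88 and 14.65 in wild types, with ratios of -0.10, 0.45, -0.20 and 0.23. In both, the mutant was lower where it carried Cy5 and higher where it carried Cy3, so the sign followed the dye. Psmb1 was at 0.02 and Psmb4 at -0.036. Over the 14 alpha and beta subunits of the core particle the median change was 0.0097, with 7 higher and 7 lower.

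The core particle cuts proteins with Psmb5, which prefers sites after large hydrophobic residues, Psmb6, which prefers acidic residues, and Psmb7, which prefers basic ones. Psmb5 had levels of 15.91, 15.44, 15.80 and 15.76 in mutants, against 15.64, 15.65, 15.67 and 15.94 in wild types, ratios of 0.27, -0.21, 0.13 and -0.18 and a change of -8.9e-05. Psmb6 had levels of 15.40, 14.79, 15.39 and 15.08 in mutants, against 14.95, 15.06, 14.93 and 15.43 in wild types, ratios of 0.45, -0.27, 0.46 and -0.35 and a change of 0.073. Here the sign again followed the dye, the mutant being higher on the arrays where it carried Cy5. Psmb7 had levels of 13.31, 13.38, 13.27 and 13.68 in mutants, against 13.41, 13.11, 13.53 and 13.48 in wild types, ratios of -0.10, 0.27, -0.25 and 0.19 and a change of 0.026, with the opposite dye pattern. None of the 3 had levels that separated the genotypes.

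The immunoproteasome subunits Psmb8, Psmb9 and Psmb10 take the places of Psmb5, Psmb6 and Psmb7 in that order, are abundant in leukocytes and are induced by interferon gamma in other cells. Psmb8 had levels of 8.86, 8.54, 8.57 and 9.16 in mutants, against 8.97, 8.54, 9.06 and 8.97 in wild types, and ratios of -0.12, -0.0093, -0.48 and 0.19. Psmb9 had levels of 8.68, 8.25, 8.25 and 8.67 in mutants, against 8.40, 8.43, 8.56 and 8.39 in wild types, and ratios of 0.28, -0.18, -0.31 and 0.29. Psmb10 had levels of 12.54, 12.55, 12.40 and 12.79 in mutants, against 12.48, 12.63, 12.53 and 12.86 in wild types, and ratios of 0.061, -0.086, -0.13 and -0.061. Mutants and wild types overlapped in all 3 genes, and the fitted changes were -0.10 ± 0.092 for Psmb8, 0.019 ± 0.13 for Psmb9 and -0.054 ± 0.072 for Psmb10 (SE, n = 4 arrays), with a median of -0.054. Setting each against the subunit it replaces on the same array, the ratio of Psmb8 minus that of Psmb5 averaged -0.10 ± 0.47, Psmb9 minus Psmb6 -0.054 ± 0.58 and Psmb10 minus Psmb7 -0.081 ± 0.26 (SD over 4 arrays). Each of these differences is smaller than that SD, but its sign followed the dye orientation of the arrays. The SD therefore holds the dye effect and does not measure the uncertainty of the mean difference, which was not tested. Psmb11, the thymus subunit, was above background in 0 of 8 samples and was not tested.

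Markers of leukocytes were read beside these subunits. Of 16 markers 9 were measured, 8 of them lower in mutants, with a median change of -0.10, where 5246 of all 11453 genes were lower. The marker median was -0.23 in the male pairs, with 1 of 9 higher, and 0.023 in the female pairs, with 6 of 9 higher. Median ratios of the markers were -0.22, -0.20, -0.052 and 0.011 on arrays 1 to 4. Their mean level per sample ran from 9.56 to 9.72 in mutants and from 9.67 to 9.95 in wild types. The defining markers Ptprc, Adgre1, Cd8a and Cd79a were below the brightness filter. Cd74, the invariant chain of class II antigen presentation, had ratios of -0.70, -0.20, -0.33 and -0.44 and a change of -0.42 (limma unadjusted p = 0.00628, adjusted p = 0.707). The part of leukocytes in the immunoproteasome values was not tested.

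**Figure D2:**
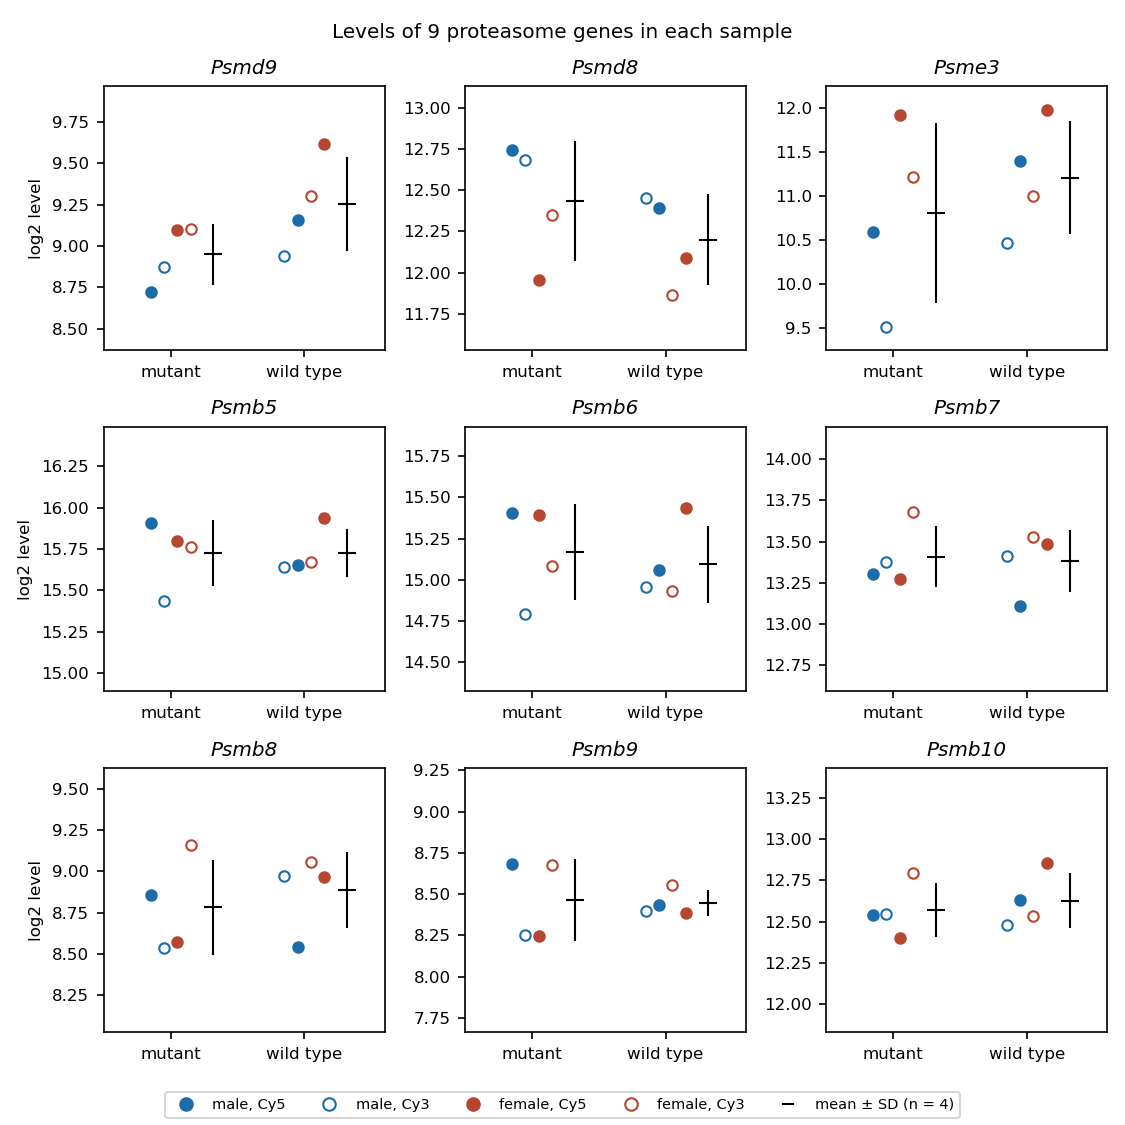
Log2 level of 9 proteasome genes in each sample, mutants on the left and wild types on the right of each panel, with colour for sex, filled points for Cy5, open points for Cy3 and bars for the mean ± SD of 4 samples. Mutants and wild types overlap in every panel, and Psme3 has the widest spread, with mutants from 9.52 to 11.92 and wild types from 10.47 to 11.98.

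Promoter sequence is shown for Psmd9 and Psmd8, the members of smallest p, for the catalytic subunits Psmb5 and Psmb6, for the immunoproteasome subunit Psmb8 and for Psme3, the member that varied most between arrays. The letters are the 250 bases before the start of each gene from RefSeq, build GRCm38.p6, 5′ to 3′ along the gene. Capitals mark matches to an antioxidant response element (TGACNNNGC, bound by the transcription factors Nfe2l1 and Nfe2l2, known regulators of proteasome genes), to an ETS site (CCGGAAG), to the core of an interferon-stimulated response element (GAAANNGAA) or to a gamma-activated site (TTCNNNGAA), on either strand.
Psmd9, chr5:123227940-123228189, plus strand: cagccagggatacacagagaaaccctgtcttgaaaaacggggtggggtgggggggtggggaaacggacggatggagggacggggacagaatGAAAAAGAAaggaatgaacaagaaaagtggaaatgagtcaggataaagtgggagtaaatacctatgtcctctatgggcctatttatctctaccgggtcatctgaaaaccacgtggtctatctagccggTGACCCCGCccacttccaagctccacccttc
Psmd8, chr7:29180674-29180923, minus strand: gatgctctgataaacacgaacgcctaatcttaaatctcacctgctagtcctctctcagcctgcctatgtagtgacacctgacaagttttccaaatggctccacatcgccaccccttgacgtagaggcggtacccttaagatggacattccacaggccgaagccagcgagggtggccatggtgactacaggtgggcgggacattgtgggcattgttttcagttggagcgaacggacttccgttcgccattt
Psmb5, chr14:54617996-54618245, minus strand: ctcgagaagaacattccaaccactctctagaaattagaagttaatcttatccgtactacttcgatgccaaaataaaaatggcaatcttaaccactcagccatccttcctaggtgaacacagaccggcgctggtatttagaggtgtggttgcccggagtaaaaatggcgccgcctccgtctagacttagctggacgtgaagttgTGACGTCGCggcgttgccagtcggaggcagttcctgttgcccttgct
Psmb6, chr11:70525107-70525356, plus strand: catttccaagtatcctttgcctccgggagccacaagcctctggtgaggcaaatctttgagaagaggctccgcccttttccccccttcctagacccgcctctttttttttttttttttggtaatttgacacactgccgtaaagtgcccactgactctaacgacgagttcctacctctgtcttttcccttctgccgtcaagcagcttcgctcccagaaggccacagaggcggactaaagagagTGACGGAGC
Psmb8, chr17:34197945-34198194, plus strand: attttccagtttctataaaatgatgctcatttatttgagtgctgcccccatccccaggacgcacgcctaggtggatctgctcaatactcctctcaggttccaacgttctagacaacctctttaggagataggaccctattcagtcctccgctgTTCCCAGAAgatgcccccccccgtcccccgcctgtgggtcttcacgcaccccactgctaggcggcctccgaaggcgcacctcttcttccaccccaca
Psme3, chr11:101315963-101316212, plus strand: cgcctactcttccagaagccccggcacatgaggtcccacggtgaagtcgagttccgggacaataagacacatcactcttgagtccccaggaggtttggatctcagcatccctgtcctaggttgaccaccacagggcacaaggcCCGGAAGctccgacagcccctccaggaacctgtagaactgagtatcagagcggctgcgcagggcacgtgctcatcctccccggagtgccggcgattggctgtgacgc

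Of the 48 members tested, 41 had such a window. The antioxidant response element letters were found in 5 of 41 (12.2%), namely Psmb5, Psmb6, Psmc6, Psmd12 and Psmd9, against 11.5% of all 27018 genes with a window. In Psmb5, Psmb6 and Psmd9 the match began 47, 9 and 31 bases before the start. The ETS letters stood in 13 of 41 members (31.7%), Psme3 and Psmc6 among them, against 7.83% of all genes. A GC box (GGGCGG) was present in 22 members (53.7%), Psmd8 and Psmd9 included, against 35.4%, and the CCAAT letters in 15 (36.6%), against 37.5%. In Psmd9 the GC box, read on the minus strand, overlaps the antioxidant response element. The interferon-stimulated core was found in 3 members (7.32%), against 8.18%, and the gamma-activated site in 2 (4.88%), Psmb8 and Psmg1, against 8.13%. All 41 members had passed the brightness filter, while the 27018 genes were not filtered, so the shares come from unlike sets. These matches describe letters in the window and say nothing of binding. The genes with an antioxidant response element match had no common direction, with changes of -8.9e-05 for Psmb5, 0.073 for Psmb6, 0.097 for Psmc6, -0.11 for Psmd12 and -0.30 for Psmd9.

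The ATPases Psmc1 to Psmc6 form the ring that unfolds substrates and opens the core. Their median change was 0.071, 4 of 6 were higher in mutants, and all 6 changes lay within 0.1 of 0. Psmc6 was highest, with levels of 11.96, 12.09, 12.32 and 12.34 in mutants, against 11.92, 12.01, 12.19 and 12.21 in wild types, and ratios of 0.043, 0.078, 0.13 and 0.13. Its ratios were above 0 in all 4 pairs, though the levels of mutants 1 and 2 lay below those of wild types 3 and 4. The lowest was Psmc2, with levels of 14.30, 14.11, 14.27 and 13.97 in mutants, against 14.07, 14.33, 14.17 and 14.13 in wild types, ratios of 0.23, -0.22, 0.098 and -0.16 and a change of -0.014. Psmc1 was at 0.091, Psmc3 at 0.063, Psmc4 at 0.078 and Psmc5 at -0.00042. On array 1 all 6 ATPases had a ratio above 0 (median 0.20), and on arrays 2, 3 and 4 there were 3 of 6.

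The non-ATPase subunits of the regulatory particle build its scaffold and lid and include the ubiquitin receptors and the deubiquitinase. Of 11 measured, 5 were higher and 6 lower in mutants, with a median change of -0.0065. Psmd8, a lid subunit, was the member with the largest positive change. It had levels of 12.74, 12.68, 11.96 and 12.35 in mutants 1 to 4, against 12.45, 12.39, 11.87 and 12.09 in wild types 1 to 4, and ratios of 0.29, 0.29, 0.091 and 0.27. Each mutant lay above its array partner, while the 4 females lay below the 4 males, so the levels of the genotypes overlapped. The change was 0.23 ± 0.072 (SE, n = 4 arrays, 95% confidence interval 0.05 to 0.42), with means of 12.43 ± 0.36 in mutants and 12.20 ± 0.27 in wild types (SD, n = 4). It did not pass the threshold (limma unadjusted p = 0.0217, adjusted p = 0.707).

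Psmd14, the deubiquitinase that strips ubiquitin chains from substrates, had the largest negative change of the regulatory particle. Its levels were 10.05, 9.77, 9.78 and 10.16 in mutants, against 10.25, 9.90, 10.33 and 10.08 in wild types, and its ratios -0.20, -0.13, -0.55 and 0.078. Mutants were lower on 3 of 4 arrays, and the change of -0.20 ± 0.091 did not pass (SE, n = 4 arrays, limma unadjusted p = 0.0758, adjusted p = 0.707). Its partner in the lid, Psmd7, was at -0.025. The scaffold subunits Psmd1 and Psmd2 were at 0.039 and 0.074, and the ubiquitin receptor Psmd4 at -0.0065. Further lid subunits were at 0.021 for Psmd3, -0.088 for Psmd6, 0.013 for Psmd11, -0.11 for Psmd12 and -0.024 for Psmd13. Over all 17 subunits of the regulatory particle the median was 0.013, with 9 higher and 8 lower, so that core and regulatory particle differed by less than the spread of their medians between arrays.

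The activators cap the core particle without using ubiquitin. Psme1 and Psme2 form the cap that interferon gamma induces. Psme1 had levels of 12.01, 11.86, 11.99 and 12.09 in mutants, against 11.79, 11.95, 11.90 and 11.96 in wild types, ratios of 0.21, -0.088, 0.087 and 0.12 and a change of 0.083. Psme2 matched no probe here, and Psme2b, a close copy on chromosome 11 whose probes could also bind Psme2 RNA, had levels of 12.67, 12.26, 12.63 and 12.57 in mutants, against 12.45, 12.29, 12.56 and 12.62 in wild types, and ratios of 0.22, -0.03, 0.075 and -0.053. Its change was 0.053, and a second probe gave -0.068, so the 2 probes differ in sign and the value is uncertain. Psme4, a large nuclear activator with roles in spermatogenesis, had levels of 11.30, 11.61, 10.61 and 10.82 in mutants, against 11.30, 10.95, 11.15 and 10.45 in wild types, and ratios of -0.0071, 0.67, -0.54 and 0.36. Its change of 0.12 ± 0.11 (SE, n = 4 arrays) was the highest among activators, with array pairs on both sides of 0.

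Psme3, a nuclear activator that promotes degradation without ubiquitin, varied more between arrays than any other member. It had levels of 10.588, 9.519, 11.916 and 11.219 in mutants 1 to 4, against 10.472, 11.394, 10.997 and 11.980 in wild types 1 to 4. Its ratios were 0.12, -1.87, 0.92 and -0.76. The mutant was higher where it carried Cy5 and lower where it carried Cy3, and the dye term of 0.92 was larger than the change of -0.40 ± 0.22 (SE, n = 4 arrays, 95% confidence interval -0.96 to 0.16, limma unadjusted p = 0.129, adjusted p = 0.707). Means were 10.81 ± 1.02 in mutants and 11.21 ± 0.64 in wild types (SD, n = 4). Of the named probes 1 matched Psme3, so no second probe bears on it.

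The genotype by sex term asks whether the effect differed between the 2 male and the 2 female pairs. Psme3 was the 1 member of 48 past the threshold, with an effect of -0.88 in males and 0.079 in females, and a male minus female difference of -0.96 (SE 0.15, limma adjusted p = 0.0148). Of all genes, 420 (3.67%) had a male effect below the female one by the same call, and 25 (0.218%) the reverse. Between arrays of the same dye orientation the male minus female difference of Psme3 was -0.80 where the mutant carried Cy5 and -1.11 where it carried Cy3. The call was absent with no dye term (adjusted p = 1.000), when the ratio of the scanner's program was used (-0.96, adjusted p = 0.112) and in the authors' deposited table (-0.96, adjusted p = 0.103), while the difference itself stayed at -0.96 in these 3. The fit has 1 residual degree of freedom before moderation, so no pair could be left out of it.

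Samples stood apart in the genes of this call. A sample's deviation from each gene's mean over samples was taken as the median over the 420 genes. It was -0.25, -0.37, 0.043 and -0.34 in mutants 1 to 4, against 0.47, 0.92, -0.46 and -0.18 in wild types 1 to 4. These genes were chosen for a male effect below the female one, so male wild types above their mutants are in part fixed by that choice. Both male wild types were high, wild type 2 most of all. Psme3 itself did not share this order, since wild type 1 was its lowest wild type at 10.47 and wild type 2, at 11.39, lay below wild type 4 at 11.98. Its lowest level of the 8 was that of mutant 2 at 9.52, the array partner of wild type 2. Without replicate 1 or 2, which hold these wild types, the fitted change of Psme3 was -0.20 or -0.12, and without replicate 4 it was -0.68. Markers of erythroid cells moved with the same term: 5 of 6 passed it, with a median effect of 0.019 in males and 1.64 in females, and their mean level per sample ran from 11.92 to 14.59 in mutants and from 11.51 to 12.95 in wild types. Of the leukocyte markers 1 of 9, Itgam, passed. The part of blood cells and of the 2 male wild types in the Psme3 value was not tested.

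Other members did not pass the sex term. The 3 at an unadjusted p under 0.05 were Psmc3ip, Psme4 and Psmd2, with male minus female differences of 0.59, 0.42 and 0.39. Their limma adjusted p was 0.127, 0.286 and 0.309, and each was higher in male and lower in female mutants. The share of all genes at this unadjusted cut is not given here, so the 3 are not read as an excess. By the adjusted call, 445 of all 11453 genes passed. The effect in males was above 0 in 39 of 48 members (81.3%), against 56.7% of all genes, and in females in 16 of 48 (33.3%), against 51.6%. Median effects of the members were 0.061 in males and -0.031 in females, and those of all genes 0.027 and 0.0048. The female count rests on array 3: ratios were above 0 for 29, 29, 15 and 28 members on arrays 1 to 4, so the female pair of array 4 did not share it. Members are read from the same 4 pairs and are not replicates of each other.

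**Figure D3:**
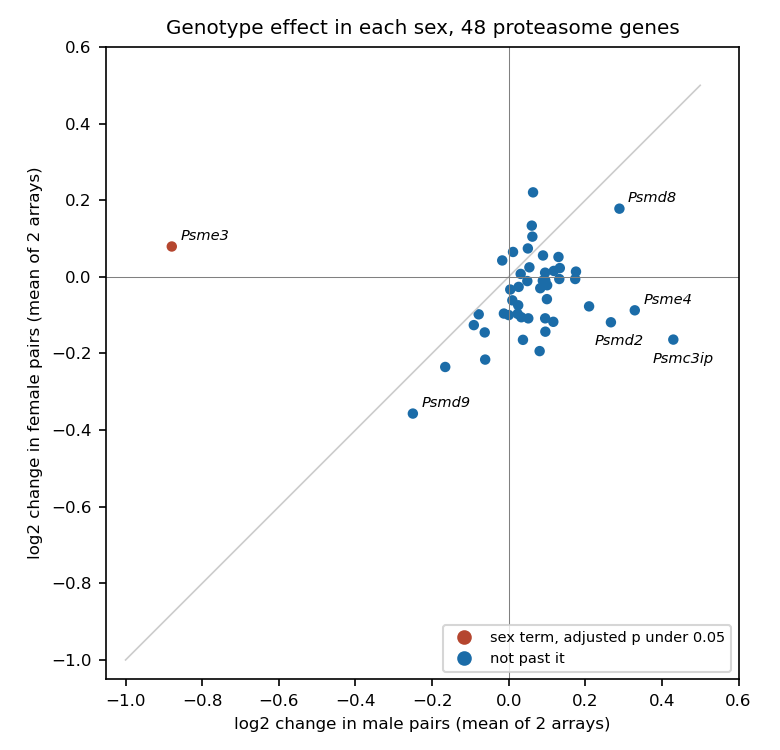
Mean log2 ratio of mutant over wild type in the 2 female pairs (vertical axis) against that in the 2 male pairs (horizontal axis) for 48 proteasome genes, with the diagonal of equal effects. Psme3 lies at -0.88 in males and 0.079 in females, and Psmd8 and Psmd9 lie on the same side of 0 in both sexes.

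Psmf1, an inhibitor of the core particle in the test tube, had levels of 7.73, 7.62, 7.48 and 8.16 in mutants, against 7.80, 7.39, 7.89 and 8.13 in wild types, which overlapped, with ratios of -0.07, 0.23, -0.41 and 0.021 and a change of -0.056. The assembly chaperones build the 2 particles and leave them afterwards. Psmg1 to Psmg4, which assemble the alpha ring, were at 0.067, 0.062, -0.029 and 0.084. Psmg4, the highest, had levels of 9.12, 9.28, 8.84 and 9.47 in mutants, against 9.38, 8.67, 9.17 and 9.15 in wild types, with ratios of -0.26, 0.61, -0.33 and 0.31 that followed the dye. Psmd5, Psmd9 and Psmd10 each hold ATPases during assembly of the regulatory particle, and Psmd5 and Psmd10 were at 0.038 and 0.04. Of the 7 chaperones 5 were higher and 2 lower, with a median change of 0.04.

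Psmd9 was the member of smallest p, rank 123 of 11453 genes. It had levels of 8.72, 8.87, 9.10 and 9.10 in mutants 1 to 4, against 8.94, 9.16, 9.30 and 9.61 in wild types 1 to 4, and ratios of -0.22, -0.28, -0.20 and -0.51. Each mutant was below its array partner, and the female samples of both genotypes lay above the male ones of the same genotype. Means were 8.95 ± 0.19 in mutants and 9.25 ± 0.28 in wild types (SD, n = 4). The change of -0.30 ± 0.074 (SE, n = 4 arrays, 95% confidence interval -0.49 to -0.11) did not pass the threshold (limma unadjusted p = 0.00875, adjusted p = 0.707). A second, dimmer probe of Psmd9 gave -0.10 with ratios of -0.047, 0.22, -0.39 and -0.18, and the mean of both probes gave -0.20. Psmd9 is the 1 member within 20 Mb of Pus1 on chromosome 5, and after 5 backcross generations strain sequence carried along with the mutant allele and the allele itself cannot be told apart.

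The other 2 members were found by their symbol and have none of the roles above. Psmc3ip, a factor of meiotic recombination, had levels of 7.86, 7.35, 7.61 and 7.37 in mutants, against 7.37, 6.99, 7.89 and 7.41 in wild types, ratios of 0.49, 0.37, -0.28 and -0.043 and a change of 0.13. Psme3ip1, which binds Psme3, had levels of 10.12, 10.07, 9.91 and 9.84 in mutants, against 9.94, 9.82, 9.97 and 9.94 in wild types, ratios of 0.18, 0.24, -0.057 and -0.097 and a change of 0.066. In both genes the 2 male pairs had ratios above 0 and the 2 female pairs below, and the levels of the genotypes overlapped.

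The sign of a ratio often went with the dye orientation of its array. In 34 of 48 members (70.8%) the dye term was larger than the change, against 62.7% of all genes, and this held for 7 of 7 beta subunits. In 24 of 48 members the ratio had 1 sign on arrays 1 and 3 and the other on arrays 2 and 4, where 30% of all genes did, and 6 of 7 beta subunits were among them. Within the beta subunits the direction was not common, since Psmb5 and Psmb6 were higher with Cy5 and Psmb2, Psmb3, Psmb4 and Psmb7 with Cy3. The dyes are balanced over the 4 arrays and within each sex, so this term cancels in the fitted change. Median ratios of the members were 0.057, 0.09, -0.12 and 0.02 on arrays 1 to 4, against 0.028, 0.012, 0.013 and -0.0079 for all genes.

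**Figure D4:**
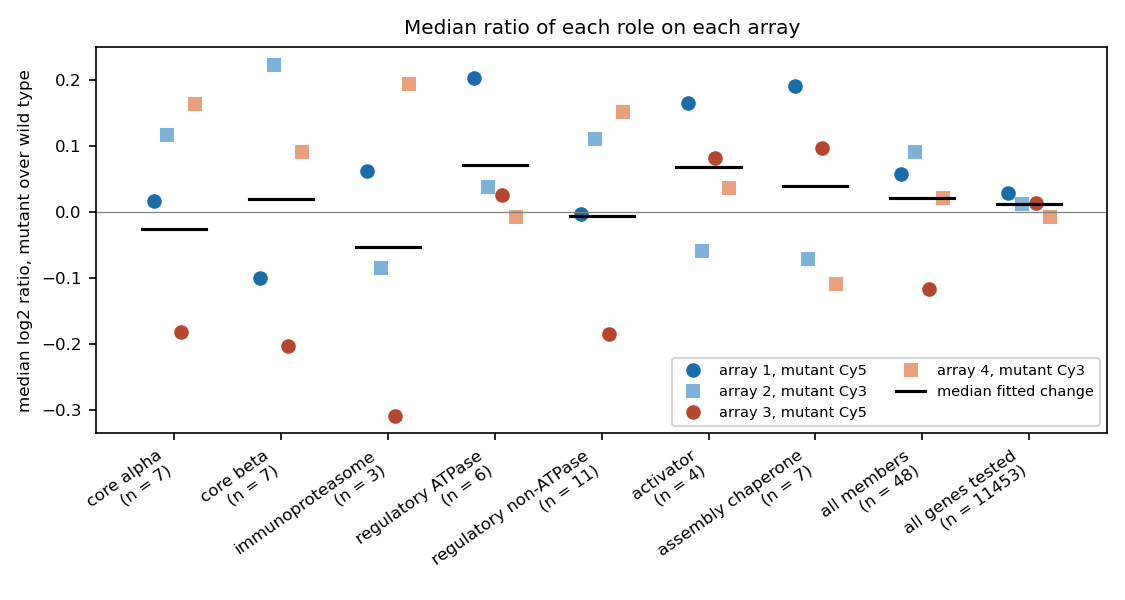
Median log2 ratio of mutant over wild type on each of the 4 arrays (points) and median fitted change (lines) for each role of proteasome genes, all 48 members and all 11453 genes tested. In each role, array medians fall on both sides of 0, while the fitted medians stay between -0.054 and 0.071.

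Genes that work with the proteasome were read from 4 lists, and none of their members passed the threshold. Of all genes tested, 54.2% were higher in mutants. Of the partners and regulators of the proteasome 24 genes were measured and Paaf1 was not, with 16 higher and 8 lower in mutants, with a median change of 0.029. The 3 of smallest p were Ecpas, a scaffold that holds the 2 particles together, at 0.23 ± 0.086, the ubiquitin receptor Adrm1 at 0.16 ± 0.067 and the thioredoxin-like Txnl1 at 0.13 ± 0.074 (SE, n = 4 arrays). Ecpas and Adrm1 were the 2 of 24 genes with ratios above 0 on 4 of 4 arrays, where 6.5% of all genes showed this. The ratios were 0.36, 0.35, 0.17 and 0.047 for Ecpas and 0.22, 0.17, 0.15 and 0.11 for Adrm1. Genes named for a small p tend to share a sign over the arrays. Nfe2l1, the factor that raises proteasome transcripts when proteasome activity falls, was outside the rule for named genes and is given for its role: it was at -0.0021 ± 0.09, with ratios of 0.05, 0.11, -0.34 and 0.18.

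Of 20 genes of ubiquitin and its activation all were measured, 11 higher and 9 lower, with a median of 0.017. The ubiquitin-conjugating enzymes Ube2g1 and Ube2j1 were at 0.20 ± 0.073 and -0.16 ± 0.069 (SE, n = 4 arrays).

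Of 14 ubiquitin ligases of muscle all were measured, 9 higher and 5 lower, with a median of 0.038. Trim63, the ligase known as MuRF that marks myofibrillar proteins during wasting, had levels of 14.12, 13.80, 13.98 and 13.73 in mutants, against 13.66, 13.54, 13.83 and 13.64 in wild types, and ratios of 0.46, 0.26, 0.15 and 0.088. The mutant was above its partner on 4 of 4 arrays, as in 3 of the 14 genes of this list and 6.5% of all genes. The change of 0.24 ± 0.086 did not pass (SE, n = 4 arrays, limma unadjusted p = 0.0371, adjusted p = 0.707). Fbxo21, which lies within 20 Mb of Pus1, and Fbxo30 were at 0.27 ± 0.11 and 0.14 ± 0.075. Fbxo32, the other ligase best known from wasting muscle, is also outside the rule and was at 0.015 ± 0.14, with ratios of 0.093, 0.52, -0.55 and 0.0052.

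Of 22 genes of peptide loading and interferon signalling, which use the peptides that the immunoproteasome makes or switch on its subunits, 18 were measured. The split was 9 higher and 9 lower, with a median of 0.0047. Pdia3, a chaperone of class I loading, was at 0.15 ± 0.076, the transcription factor Irf1 at 0.20 ± 0.099 and the loading factor Tapbp at -0.089 ± 0.071. Tap1, Nlrc5 and Irf7 were below the brightness filter.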

How the data were processed

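Red gastrocnemius RNA (100 ng per sample) of 4 mutant and 4 wild type mice was hybridised on 4 2-colour arrays of 62976 spots, all on 1 slide, which left no slide batch. Median spot and local background intensity is raw linear brightness from the scanner, per the file headers. For processed intensity, Feature Extraction 10.7.3.1 had subtracted background, removed trends and scaled the dyes, per the file headers. The submitters' processing notes name the same version. The scanner's ratio is log10 of processed Cy5 over Cy3, per the file headers. A deposited table of the authors' values is in log2 units, with each probe centred on its median over the 8 samples, as its values show. How it was made is not given in the sources used. Its channel differences had slopes of 0.98 to 1.03 against the scanner's ratios put on the log2 scale, with r from 0.980 to 0.989, which settles scale and direction. Its column medians were -0.0016, 0.0066, 0.0045 and 0.019 for mutants 1 to 4 and -0.035, -0.062, 0.013 and 0.0036 for wild types 1 to 4.

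In R 4.3.3 with limma 3.58.1, median intensity was corrected by normexp (offset 50) and ratios were normalized by loess within arrays, with control and outlier spots at weight 0. Levels are per channel after loess and Aquantile. Probes were named by unversioned accession through a RefSeq table of GRCm38.p6, and 27656 probes matched 1 gene. Probes entered the tests when 50% or more of their spots exceeded background clearly in each of the 4 mutants or each of the 4 wild types, and each gene took its brightest probe. Of 59 kept member probes, 11 genes had more than 1. The model held genotype and dye, with 2 residual and 3.22 prior degrees of freedom, and a genotype by sex term was tested in the same data. Tests were 2-sided, with Benjamini-Hochberg adjusted p under 0.05 over 11453 genes. The array holds the pair, from the shared array and individual number. Across genes, the 2 samples of a pair deviated together from their group means (r = 0.38, 0.25, 0.12 and 0.50 for pairs 1 to 4). Partners share the spots of 1 array and their sex, so these r cannot tell an array effect from a pairing of animals. The steps were tested on simulated data. Precision is limited by the number of arrays.

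The members, the lists and the tests were chosen with earlier results of these data known. Every tested member was named with its change. Levels and array ratios are given for members at an unadjusted p under 0.05, for the catalytic and immunoproteasome subunits, for Psme1 and its partner, for the highest and lowest member of each role, and in the text for some others. Of each pathway list the 3 genes of smallest p were named, except that some genes of the lists are not reported here. Alternatives changed the background correction, normalization, dye term, probe filter, probe choice, block and samples. Promoter letters were searched in RefSeq windows, and protein and probe sequences were not used here.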

Additional observations from a re-analysis of the deposited data

Results flagged for a closer look

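The levels of 48 members were looked at in each genotype, and in 4 of these 96 groups of 4 samples 1 sample stood far from its nearest neighbour relative to the range of its group. Chance flags about 1 in 20 groups, so 4 of 96 is no excess. Psmc3, an ATPase of the regulatory particle, was at 15.89 in mutant 1, where the other mutants lay between 15.66 and 15.68. Psmd6, a lid subunit, was at 13.61 in mutant 4, where the other mutants lay between 13.06 and 13.12. Psma6, an alpha subunit, was at 12.97 in wild type 2, where the other wild types lay between 13.38 and 13.40. Psmb5, a catalytic subunit, was at 15.94 in wild type 4, where the other wild types lay between 15.64 and 15.67.

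The genotype effect of Psme3 differed between the sexes by the interaction term, with a male minus female difference of -0.96.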

How the results depend on the processing

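No member passed the genotype threshold under any of 15 alternatives (adjusted p over all genes), and 18 of 48 members kept the sign of their change in all of them, among them Psmd9 (-0.36 to -0.20) and Psmd8 (0.18 to 0.29). The count of all genes changed, 2 (1 higher, 1 lower), was 267 with median centring (38 higher), 1 with no dye term, 7 in the female pairs alone (6 higher) and 0 with the scanner's own ratio, the authors' deposited table, the filter on all 8 samples or the male pairs alone. Leaving out each replicate gave 0 to 0 genes (302 to 1157 at an unadjusted p under 0.05). Without the pairing, the fit with no replicate block gave 0 members and 3 genes. The count of members past the sex term, 1, was 0 with no dye term, the scanner's own ratio and the authors' deposited table, and the term could not be refitted without a replicate. The causes were not tested. The median of the regulatory particle was 0.096 in the male pairs alone and -0.058 in the female pairs alone. Without 1 replicate the medians ran from -0.027 to 0.058 over all members, -0.028 to 0.039 for the core particle, -0.031 to 0.064 for the regulatory particle and -0.13 to -0.0063 for the immunoproteasome. The median half-width of a member's 95% confidence interval was 0.19, without adjustment for the number of genes. Changes somewhat larger than this did not pass the adjusted threshold, as with Psmd9 at -0.30 and Psmd8 at 0.23.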
